A study of Mus musculus with 24 samples.

Results

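The comparison described here is that of ID8 Trp53−/− cells treated with the degrader AU-15330 alone against the same cells given the vehicle DMSO. Its members are the 6 libraries labelled AU15330 and the 6 labelled DMSO, 12 of the 24 libraries of the series, and every gene in the table of read counts entered the analysis. ID8 is a mouse ovarian cancer line that arose from ovarian surface epithelium in culture, and all groups carried a knockout of Trp53. AU-15330 was given at 2.5 µM for 6 days, DMSO for the same 6 days, and neither group received cisplatin. The other 12 libraries, which share the estimate of the spread in every test and are described only where the response to AU-15330 is set against that of cisplatin-treated cells, came from cells given cisplatin (750 nM in the labels) without or with AU-15330 for 6 days. All libraries came from 1 cell line, and the labels do not say whether replicates were separate cultures, so p-values measure the spread between these samples, which may be technical.

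SMARCA4 (BRG1) and SMARCA2 (BRM) are the alternative ATPases of the SWI/SNF complexes, which use ATP to slide and evict nucleosomes and so keep enhancers and promoters open to transcription factors. AU-15330 is a PROTAC, a molecule that bridges these proteins to a ubiquitin ligase so that the proteasome destroys them. SWI/SNF is best known for keeping distal enhancers accessible, often at sites bound by AP-1 and TEAD factors, and for opposing Polycomb repression. Because the drug acts on the proteins, the mRNA of its targets does not check the labels.

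Polyadenylated RNA was sequenced, and the files hold unnormalised counts of reads per gene, from 17592588 to 23490259 per library over the 12 libraries. Levels are given in CPM, read counts relative to the size of the library after TMM scaling, and 3 counts in a library, taken as the floor, corresponded to 0.123 to 0.186 CPM. The first principal component of log2 CPM held 85.8% of the variance and set the groups apart, while correlations between libraries were 0.853 to 0.876 across the groups, 0.975 to 0.994 within DMSO and 0.987 to 0.995 within AU-15330. The DMSO libraries were the more variable, with a median SD over genes of 0.254 log2 CPM against 0.138. On the second component, with 3.88% of the variance, DMSO replicates 1 to 3 lay apart from replicates 4 to 6. The labels name no batch that corresponds to these numbers, so the counts of the larger list responses are also given within replicates 1 to 3 and within replicates 4 to 6, a check added after the data were seen. Of 286 sets of 6 values examined for the named genes, 28 held a library far from the others, in 22 cases replicate 1 of its group.

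The cells kept their lineage label in part. Of 12 markers of ovarian surface epithelium and mesothelium, 10 were tested, and all 10 were lower with AU-15330. Of all tested genes 37.2% were lower and 36.2% higher. The summed level of the markers went from between 3543 and 5360 CPM to between 1019 and 1153 CPM. Defining markers of lymphocytes never exceeded 10 counts in a library, and of 6 macrophage markers 5 stayed at that level too. The sixth macrophage marker, Cd68, a lysosomal protein that other cells also make, was at 118 to 392 counts with DMSO and 367 to 1110 with AU-15330 and was higher. Of 5 fibroblast markers 4 were tested, of which 3 were higher and 1 lower, and their summed level went from between 227 and 641 CPM to between 111 and 174 CPM. Dcn, the matrix proteoglycan decorin, was among the higher ones, at 385 to 916 and 1028 to 1458 counts. Of 4 endothelial markers Pecam1 was tested and was lower, at 58 to 92 counts with DMSO and 5 to 15 with AU-15330, and of 3 markers of fallopian epithelium Ovgp1 was tested and was lower, at 62 to 160 and 29 to 56 counts. The other markers of both lists never exceeded 10 counts. The part of such cells in the results was not tested.

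AU-15330 changed the RNA level of most genes. Of 12941 genes tested, 9497 (73.4%) passed the threshold of an adjusted p-value of 0.05, with 4681 (36.2%) higher and 4816 (37.2%) lower than with DMSO. With scaling to total counts, which moved the median change by 0.129 on the log2 scale, the balance turned to 5618 higher and 3973 lower. Large decreases outnumbered large increases: 772 genes fell by more than 8-fold against 314 that rose by as much, and past 4-fold the counts were 1161 and 694, or 1565 and 1239 with every gene of at least 1 count tested and 1096 and 770 with scaling to total counts. Past 2-fold, 2082 genes (16.1%) were lower and 1733 (13.4%) higher, an order that scaling to total counts turned, with 1893 and 2017. The 6 values of each group did not overlap for 3284 genes (25.4%) that were lower and 3173 (24.5%) that were higher. As fewer cells expressing a gene and less RNA of it per cell cannot be told apart in bulk RNA, every level below is an average over the culture.

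The genes that fell held a large part of the transcriptome of DMSO-treated cells. Those lower past 2-fold took 20.6 to 23.7% of the tested counts in DMSO libraries and 6.17 to 6.67% with AU-15330. Those higher past 2-fold went from 3.46 to 3.83% up to 12.3 to 13.4%. In 303 of the genes that fell, no AU-15330 library held more than 3 counts, and in 137 of those that rose no DMSO library did. Ranked by their level in DMSO, genes of the lowest decile were more often higher (51.9%) than lower (19.6%), and those of the highest decile more often lower (58.8%) than higher (20.1%). Ranking by the level in 1 of the groups compared tilts such shares by itself. With deciles of the mean level over the 12 libraries the lowest decile had 34.3% higher and 39.4% lower, and the highest decile 32.6% higher and 43.6% lower.

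**Figure D1:**
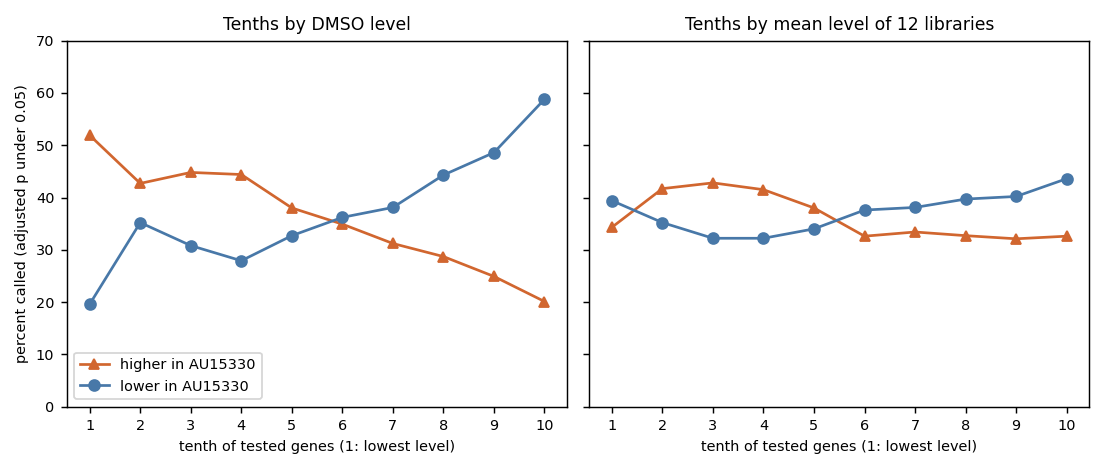
Percent of tested genes called higher (triangles) or lower (circles) with AU-15330, in deciles of the expression level with DMSO (left) and of the mean level over the 12 libraries (right). The crossing of the lines from 51.9% higher in the lowest decile to 58.8% lower in the highest was seen with deciles by DMSO level and was much flatter with deciles by mean level.

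Among the SWI/SNF genes themselves, the ATPases moved in opposite directions. Smarca4 mRNA stood at 218 to 265 CPM (median 250.1) with DMSO and at 377 to 402 CPM (median 383) with AU-15330, a log2 fold change of 0.66 ± 0.06 (SE, 6 libraries a group). Smarca2 went from 370.4 to 481 CPM (median 445) to 246 to 302 CPM (median 289), a change of -0.63 ± 0.08. Neither pair of groups overlapped. Of 25 tested subunits 8 were higher and 9 lower, shares close to those of all tested genes, or 11 and 6 with scaling to total counts. The higher ones included Smarcd3, a subunit prominent in heart and muscle (1.30 ± 0.09), Bicral, a subunit of the non-canonical complex (1.30 ± 0.17), and Arid1a, the DNA-binding subunit that defines canonical BAF (1.01 ± 0.12). Phf10, a reader subunit of the PBAF complex, showed the deepest decrease, from 114 to 168 CPM (median 164) to 43.3 to 53.2 CPM (median 44.5) (-1.75 ± 0.08). Pbrm1, another PBAF subunit, was at 93.7 to 151 CPM with DMSO and at 134 to 156 with AU-15330, and did not pass the test (adjusted p = 0.0533). The Trp53 transcript, still detected in these knockout cells, was lower (-0.52 ± 0.09). Polycomb genes, which encode the complexes that oppose SWI/SNF, divided like all genes, with 11 higher and 12 lower of 32, or 14 and 8 with scaling to total counts. Bmi1, of Polycomb repressive complex 1, rose by 1.40 and Cbx2, which reads the mark set by the other Polycomb complex, was lower (-1.66 ± 0.12).

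The largest increases among well expressed genes, those with a mean of at least 5 log2 CPM over the 12 libraries and a rise in 6 of 6 same-numbered pairs, were led by the interferon response. Irf7, the factor that amplifies interferon production, went from 7.59 to 11.1 CPM (median 8.01) with DMSO to 154 to 182 CPM (median 169) with AU-15330, a 19.7-fold rise (4.30 ± 0.11). The groups were far apart, as the choice of genes made likely. Herc6, a ligase for the ubiquitin-like protein ISG15, rose from a median of 11.8 to 192 CPM. Oasl2, of the oligoadenylate synthetase family, went from 27.6 to 45.8 CPM to 414 to 517 CPM. Its relative Oasl1 went from 12.1 to 18.2 CPM to 127 to 177 CPM in AU-15330 replicates 1 to 3 and 260.5 to 277 CPM in replicates 4 to 6. Ddx58, which encodes the RNA sensor RIG-I, rose from 37 to 52.9 CPM to 425 to 429 CPM.

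Another 6 of the 12 largest increases serve varied tasks. Serpinb9, an inhibitor of granzyme B, went from 55.9 to 81.3 CPM (median 71.1) to 1134 to 1491 CPM (median 1326) (4.22 ± 0.11). Slc40a1, the iron exporter ferroportin, rose from 50.1 to 71.7 CPM to 1352 to 1491 CPM in AU-15330 replicates 1 to 3 and 741 to 769 CPM in replicates 4 to 6 (4.16 ± 0.19). Tnfrsf21, a death receptor, went from 42.1 to 677 CPM in the median. Acacb, the acetyl-CoA carboxylase that restrains fatty acid oxidation, rose by 3.66 and Cks2, a small partner of cyclin-dependent kinases, by 3.48 on the log2 scale. Adamts1, a secreted protease that cleaves proteoglycans, was raised from 34.7 to 132 CPM (median 42.9) to 723 to 816 CPM (median 736).

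The largest decreases reached further. Trf, which encodes the iron carrier transferrin, was among the abundant transcripts of DMSO-treated cells at 3174 to 7771 CPM (median 4820.0) and was at 5.24 to 7.38 CPM (median 6.01) with AU-15330, 799-fold lower (log2 -9.64 ± 0.37). Bgn, the matrix proteoglycan biglycan, went from 899.8 to 1673 CPM (median 1137) to 1.81 to 9.59 CPM (median 2.07) (-8.52 ± 0.42), where replicate 1 gave the highest value. Krt19, a keratin of simple and mesothelial epithelia, fell from 1398 to 2518 CPM (median 1611) to 4.15 to 14.4 CPM (median 5.72). Star, the protein that brings cholesterol to the mitochondrion for steroid synthesis, went from 518 to 609 CPM (median 548) to 2.03 to 3.1 CPM (median 2.49). None of these groups overlapped, as the choice of genes made likely, and the AU-15330 values were at the level of weakly expressed genes.

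Ndrg1, which is induced by low oxygen, went from 367 to 798 CPM (median 559) to 5.86 to 11.1 CPM (median 7.4), and Ptgs2, the inducible cyclooxygenase of prostaglandin synthesis, from 305 to 1161 CPM (median 841) to 9.42 to 14.1 CPM (median 10.8). Other decreases among the 12 were those of Kank3, a cortical adaptor (log2 change -6.10 ± 0.16), Mylk, the myosin light chain kinase (-5.99 ± 0.17), and Daam2, a formin that assembles actin (-5.01 ± 0.09). Igfbp4, a secreted protein that holds insulin-like growth factors, went from a median of 2588 to 46.3 CPM. Lgals7, the epithelial galectin-7, fell from 133 to 330.5 CPM to 2.66 to 7.1 CPM. Rcan2, an inhibitor of calcineurin, went from 219.9 to 259 CPM to 4.43 to 6.21 CPM.

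**Figure D2:**
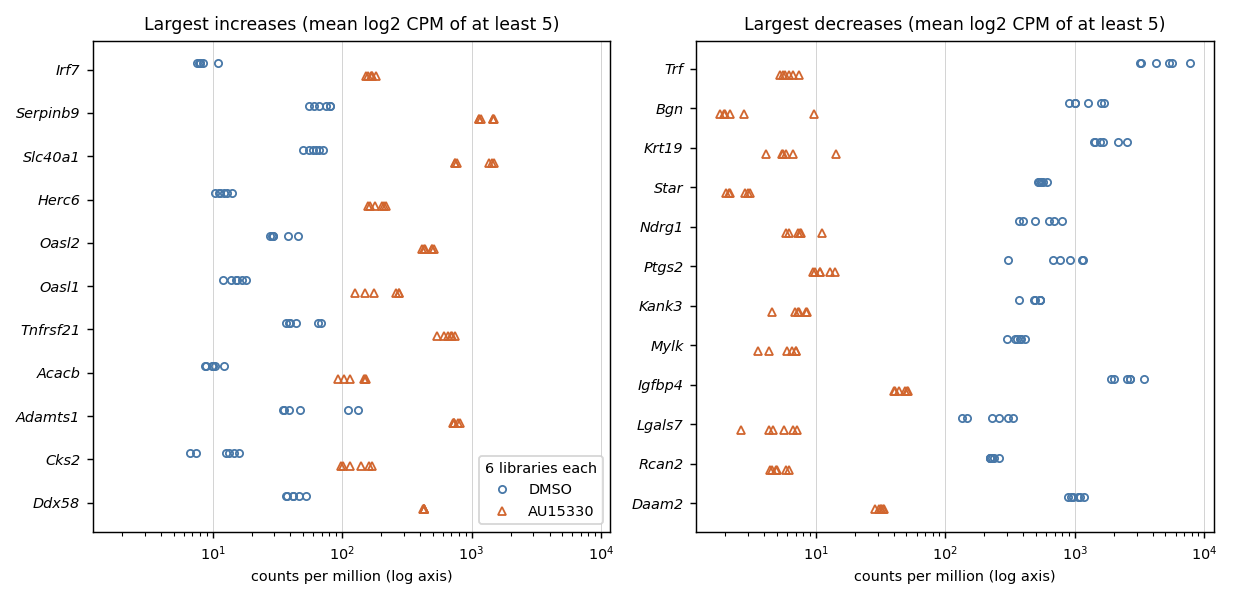
Level of 11 of the 12 largest increases (left) and 12 largest decreases (right) in each library, in CPM on a log axis, with 6 DMSO libraries (circles) and 6 AU-15330 libraries (triangles). For each of the 23 genes every AU-15330 value lies on 1 side of all DMSO values, as the choice of genes made likely.

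The 34 lists of genes below group the response by program. They were not tested as sets, and the number of members called is set beside the shares of all tested genes, 36.2% higher and 37.2% lower. Lists share 36 genes. By the percent of members higher minus the percent lower, the lists that leaned most to increases were interferon-stimulated genes, MHC class I presentation, mitosis, Hox genes and DNA replication, and those that leaned most to decreases were ribosomal proteins, glycolysis, the ATF4 response and the synthesis of cholesterol and fatty acids.

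**Figure D3:**
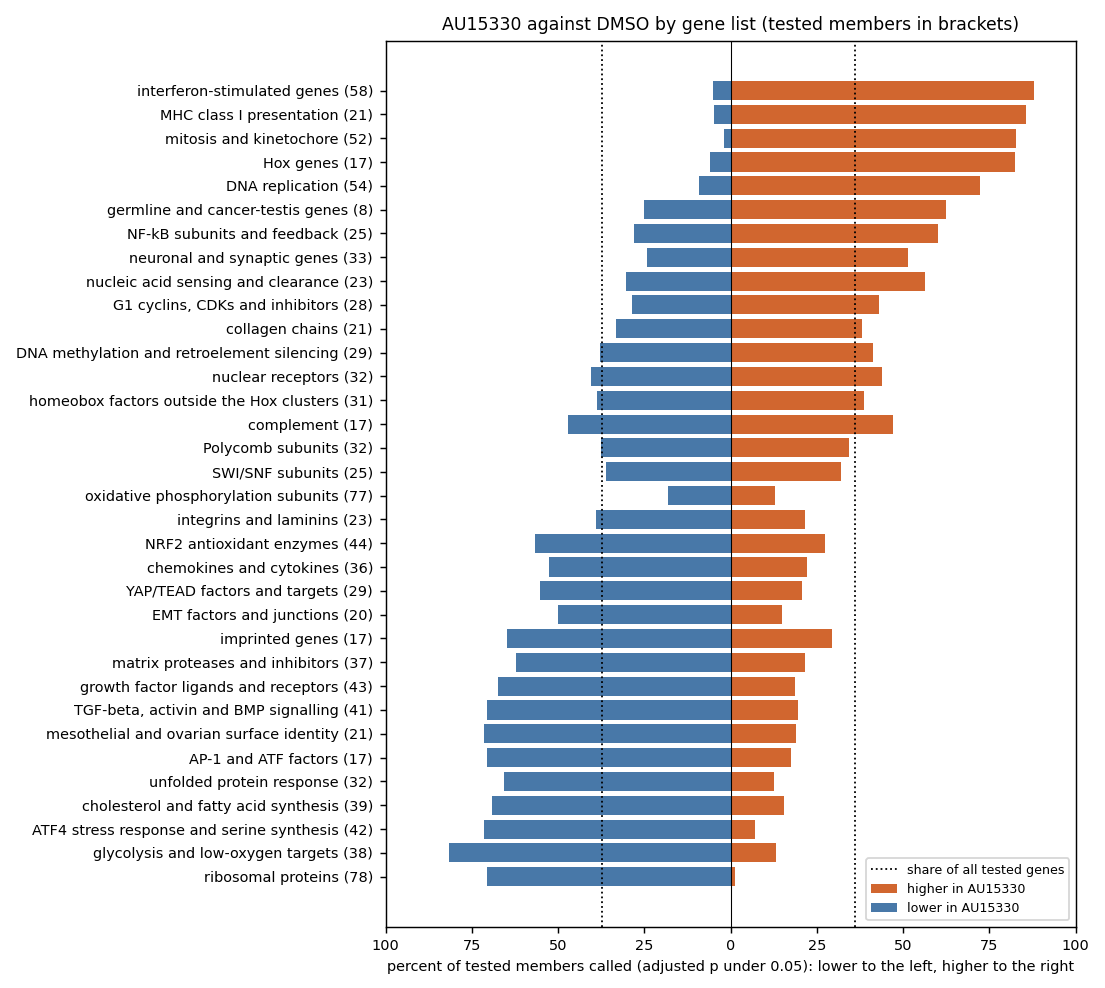
Percent of the tested members of 34 gene lists called higher (right, orange) or lower (left, blue) with AU-15330 at an adjusted p under 0.05, with dotted lines at the shares of all tested genes. Interferon-stimulated genes reach 87.9% higher, and glycolysis and low-oxygen targets 81.6% lower.

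The following lists leaned the same way in both sets of replicates. Within replicates 1 to 3 and then within replicates 4 to 6, interferon-stimulated genes gave 49 and 46 higher with 3 and 4 lower, MHC class I genes 17 and 18 higher with 0 and 1 lower, and Hox genes 13 and 13 higher with 1 and 1 lower. Mesothelial genes gave 14 and 16 lower with 4 and 3 higher, proteases 23 and 24 lower with 8 and 9 higher, growth factors 27 and 26 lower with 8 and 7 higher, and the TGF-beta list 28 and 28 lower with 7 and 7 higher. AP-1 genes gave 10 and 11 lower with 3 and 3 higher, chemokines and cytokines 15 and 17 lower with 6 and 5 higher, lipid synthesis 29 and 22 lower with 5 and 7 higher, and NRF2 enzymes 25 and 21 lower with 9 and 12 higher.

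Genes of the cell of origin were mostly lower. Of 21 tested genes of mesothelial and ovarian surface identity, 15 were lower and 4 higher, with a median log2 change of -1.56, and the summed level of the list went from 4690 to 6797 CPM with DMSO to 2393 to 2722 CPM. The 15 lower genes include the 10 tested markers of this lineage given above, so the counts are not separate results. Upk3b, a surface protein of mesothelium, went from 13.9 to 63.5 CPM (median 58.1) to 0.164 to 1.04 CPM (median 0.427) (-6.50 ± 0.47). Krt7, another simple keratin, was weakly expressed with DMSO, with 149 counts over the 6 libraries against 4 with AU-15330, a ratio of 40.4 (95% interval 15.5 to 150, counting error only). Krt18 fell from 540.4 to 816 CPM (median 615) to 104 to 144 CPM (median 122), whereas its partner Krt8 changed little, from 289 to 456 CPM to 221 to 266 CPM (-0.47 ± 0.09). Wt1, the transcription factor that marks this lineage, remained well expressed, at 794 to 916 CPM (median 836) with DMSO and 490.2 to 711 CPM (median 635) with AU-15330 (-0.46 ± 0.08). The nuclear receptor gene Nr2f1 rose from a median of 13.5 to 99.8 CPM and Cdh2, the cadherin of mesothelial junctions, from 113 to 223 CPM.

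Genes of the epithelial-mesenchymal transition and of cell junctions were lower in 10 and higher in 3 of 20. S100a4, a calcium-binding protein associated with motile mesenchymal cells, fell from 33.1 to 95.8 CPM (median 40.0) to 0.286 to 1.67 CPM (median 0.525). Cdh1, the epithelial cadherin, was hardly expressed at 0.313 to 1.16 CPM with DMSO and was lower still (-2.29 ± 0.41). Cldn1, a tight junction protein, was off in DMSO-treated cells, with 1 count over 6 libraries, and had 83 counts with AU-15330.

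Genes that build and remodel the matrix moved in both directions. Of 37 tested proteases and inhibitors 23 were lower and 8 higher (median -1.31), with 21 and 7 past 2-fold. The collagenase Mmp13 went from 7.48 to 75.7 CPM (median 44.2) to 0.0477 to 0.340 CPM (median 0.267), and its DMSO values differed between replicates 1 to 3, at 7.48 to 21.5 CPM, and replicates 4 to 6, at 66.9 to 75.7 CPM. The stromelysin Mmp10 had 1430 counts over the DMSO libraries and 10 over the AU-15330 libraries, a ratio of 155 (95% interval 84.1 to 324). Adamts14, which trims procollagen, went from 13 to 25 CPM (median 17) to 0.0486 to 0.164 CPM (median 0.118). Adamts6, a protease of the same family, moved the other way, from 0.916 to 2.05 CPM (median 1.67) to 31.1 to 54.2 CPM (median 48) (4.82 ± 0.23), as Adamts1 did.

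The 250 bases before the start of Mmp13 and of Mmp10 are shown because they were the windows, among 4 available for the 5 named protease genes, that held the AP-1 element TGANTCA, searched on both strands and given in capitals. They are RefSeq sequences of build GRCm38.p6, Mmp13 at chr9:7272264-7272513 and Mmp10 at chr9:7502092-7502341, both on the plus strand. The element was found in 6.87% of the 250-base windows of all 27025 promoters in the table, and a match is a description and not evidence of binding.
Mmp13: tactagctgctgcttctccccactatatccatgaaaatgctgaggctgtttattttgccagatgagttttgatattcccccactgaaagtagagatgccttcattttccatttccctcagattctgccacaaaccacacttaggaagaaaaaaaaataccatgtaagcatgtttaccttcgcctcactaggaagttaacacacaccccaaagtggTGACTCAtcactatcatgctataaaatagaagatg
Mmp10: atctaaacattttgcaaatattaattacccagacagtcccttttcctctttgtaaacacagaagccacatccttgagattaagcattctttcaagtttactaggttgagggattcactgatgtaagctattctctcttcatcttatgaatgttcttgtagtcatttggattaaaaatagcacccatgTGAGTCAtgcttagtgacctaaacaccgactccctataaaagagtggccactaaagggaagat

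Collagen chains divided evenly, with 8 higher and 7 lower of 21. Col17a1, the collagen of hemidesmosomes, fell from 76.2 to 126 CPM (median 125) to 0.313 to 1.94 CPM (median 0.893) (-6.79 ± 0.22). Col1a1, of fibrillar collagen, went from 186 to 622 CPM (median 359) to 58.4 to 104 CPM (median 64.2). The basement membrane chain Col4a6 rose from 304 to 411 CPM to 1075 to 1519 CPM (1.88 ± 0.12). Among 23 integrins and laminins 9 were lower and 5 higher. Within replicates 1 to 3 the counts were 10 lower and 5 higher, and within replicates 4 to 6 they turned to 7 lower and 8 higher. Itgb3, the beta chain of the vitronectin receptor, was at 111 to 157 CPM (median 125) and then 10.5 to 21.3 CPM (median 13.2). Fn1, fibronectin, was lower (-1.20 ± 0.23), with DMSO values of 795 to 3106 CPM that overlapped the AU-15330 values of 573 to 826 CPM.

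Most growth factor genes fell. Of 43 ligands and receptors 29 were lower and 8 higher (median -1.02), and their summed level went from 7788 to 9577 CPM down to 2820 to 3016 CPM. Pdgfb, a mitogen for stromal cells, went from 114 to 171 CPM (median 132) to 1.56 to 3.69 CPM (median 1.69) (-6.05 ± 0.23). Fgf1, a ligand for all FGF receptors, was lost from 3.31 to 8.35 CPM to 0 to 0.194 CPM. Nrg1 and Ereg, ligands of the EGF receptor family, rose, Nrg1 from 0.485 to 1.02 CPM to 4.52 to 12.7 CPM and Ereg from 12.4 to 26.4 CPM to 90.6 to 118 CPM. Igf2, the fetal insulin-like growth factor, had 5 counts over the DMSO libraries and 280 over the AU-15330 libraries, a ratio of 51.6 (95% interval 21.9 to 160).

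In the TGF-beta, activin and BMP list 29 of 41 were lower and 8 higher (median -0.68). Ltbp4, which stores latent TGF-beta in the matrix, fell from 222 to 237 CPM (median 226) to 7.09 to 10.6 CPM (median 8.35). Id1, a direct target of BMP signals, went from 126 to 184 CPM (median 143) to 7.25 to 26.1 CPM (median 10.9), with replicate 1 the highest of the AU-15330 values. Gdf15, a stress-induced ligand, was reduced from 3.71 to 19.8 CPM to 0 to 0.261 CPM. The BMP ligands that rose were weakly expressed: Gdf6 went from a median of 5.87 to 25.4 CPM, and Bmp7 from 1 to 102 counts over 6 libraries.

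AP-1 genes were lower in 12 and higher in 3 of 17 (median -0.87). Fosl1, the FOS-family member of migrating epithelial cells, went from 5.75 to 12.6 CPM (median 11) to 0.191 to 0.855 CPM (median 0.431) (-4.52 ± 0.31). Maff, a small MAF factor, was lower (-2.14 ± 0.14), and Jun, the central partner of the AP-1 dimer, fell from 418 to 696 CPM to 152 to 229.8 CPM. Junb was among the 3 that rose (0.50 ± 0.10). Of 29 YAP and TEAD genes 16 were lower and 6 higher. The matricellular target Ccn1 fell from 186 to 442 CPM (median 255) to 28.6 to 59 CPM (median 41.8), and the kinase Nuak2 was lower too (-3.17 ± 0.15). Ccn2, the other classical target, was lower (-1.02 ± 0.20) although the groups overlapped, at 162 to 420.4 CPM and 88.7 to 178 CPM. Lats2, the kinase that restrains YAP, was higher (1.21 ± 0.11).

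The interferon program was raised by AU-15330 in cells not given cisplatin. Of 58 tested interferon-stimulated genes 51 were higher and 3 lower, with a median log2 change of 2.82, and 50 rose past 2-fold. Their summed level was 834 to 875 CPM in DMSO libraries and 6133 to 6409 CPM with AU-15330, with the replicates of each group close together. Setting the 5 members with no more than 3 counts in every library of a group to their bound gave a median of 2.62. Isg15, a ubiquitin-like protein attached to newly made proteins, went from 1.59 to 3.77 CPM (median 2.35) to 295 to 422 CPM (median 357) (7.16 ± 0.20). Trim30a, a mouse ubiquitin ligase that tempers inflammatory signals, went from 0 to 0.619 CPM (median 0.324) to 125 to 145 CPM (median 131), and Oas1a, which makes the messenger that activates RNase L, from 0 to 0.279 CPM (median 0.140) to 17.5 to 21.3 CPM (median 18.8). The 3 that fell were Mx1, annotated as a transcribed pseudogene in this build, from 1.84 to 6.06 CPM to 0 to 0.191 CPM, Isg20, an exonuclease, from 32 to 64.2 CPM to 6.58 to 13.4 CPM, and Ifi44, a cytoplasmic protein, from 1.18 to 3.22 CPM to 0.992 to 1.77 CPM, a call that was lost within replicates 1 to 3. Reads of Oas and Ifit genes can be divided between close relatives by the counting, so single members of those families are less certain than the list.

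The promoters of Isg15, Oas1a and Trim30a are printed because these are the strongest increases of the list and each held the interferon response element (GAAA, any 2 bases, GAAA), searched on both strands and given in capitals, with overlapping matches run together. They cover the 250 bases before the start in RefSeq build GRCm38.p6, all on the minus strand: Isg15 at chr4:156200819-156201068, Oas1a at chr5:120907526-120907775 and Trim30a at chr7:104465194-104465443. Isg15 had 3 matches, Oas1a 2 and Trim30a 1, against 3.04% of all promoter windows with any. Of the 22 named genes of the interferon, nucleic acid sensing and MHC class I lists, 17 had a window and 5 held the element. The windows of Irf7, Herc6, Oasl1, Oasl2, Ddx58 and Tlr3, which also rose, held none.
Isg15: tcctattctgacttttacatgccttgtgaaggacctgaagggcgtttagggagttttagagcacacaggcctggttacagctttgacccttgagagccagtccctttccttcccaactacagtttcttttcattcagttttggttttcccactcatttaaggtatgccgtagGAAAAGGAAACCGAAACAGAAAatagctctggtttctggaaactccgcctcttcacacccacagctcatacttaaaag
Oas1a: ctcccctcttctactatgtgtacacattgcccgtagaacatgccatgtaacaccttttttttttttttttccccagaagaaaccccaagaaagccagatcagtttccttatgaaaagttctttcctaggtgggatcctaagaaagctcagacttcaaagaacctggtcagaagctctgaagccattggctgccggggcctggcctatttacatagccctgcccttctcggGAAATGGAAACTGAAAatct
Trim30a: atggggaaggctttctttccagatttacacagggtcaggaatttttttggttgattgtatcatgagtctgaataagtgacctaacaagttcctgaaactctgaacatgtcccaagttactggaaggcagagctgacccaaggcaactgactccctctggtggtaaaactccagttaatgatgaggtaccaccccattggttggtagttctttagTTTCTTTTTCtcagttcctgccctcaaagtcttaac

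RNA of the interferons themselves was at or near 0. Of 21 interferon genes measured, 19 never exceeded 3 counts in a library of either group, among them Ifnb1 and all Ifna genes listed. Ifnz reached 15 counts in an AU-15330 library from 0 with DMSO, and Ifne at most 16 from at most 6. Interferon protein was not measured here.

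Sensors of foreign or misplaced nucleic acid did not move as a block. Of 23 such genes 13 were higher and 7 lower. The RNA sensors rose: Dhx58, the relative of RIG-I known as LGP2, went from 1.58 to 3.85 CPM (median 2.64) to 46.7 to 56.5 CPM (median 50.1), and Tlr3, the receptor of double-stranded RNA in endosomes, from 4.05 to 7.76 CPM (median 5.18) to 103 to 115 CPM (median 109.5). The adaptors downstream fell. Sting1, which relays the DNA signal, went from 30.1 to 35.2 CPM (median 32.5) to 4.93 to 7.38 CPM (median 5.82) (-2.47 ± 0.10), and Mavs, which relays the RNA signal, from 186 to 230.0 CPM (median 217) to 73.3 to 86.4 CPM (median 79.5) (-1.40 ± 0.07). Cgas, the cytosolic DNA sensor, was low throughout, at 3.65 to 5.12 CPM with DMSO and 6.99 to 11.2 CPM with AU-15330 (0.97 ± 0.12).

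MHC class I presentation rose in 18 and fell in 1 of 21 genes (median 1.75). B2m, the shared light chain, went from 177 to 322 CPM (median 237) to 841 to 1033 CPM (median 929.8) (1.97 ± 0.12), and Psme2, of the proteasome activator induced by interferon, from 45 to 73.4 CPM (median 52) to 284 to 363 CPM (median 325). The class I regulator Nlrc5 rose from 3 to 113 counts over 6 libraries, a ratio of 34.7 (95% interval 11.6 to 171). H2-Q4, a non-classical class I gene with near-identical neighbours, had 4 and 181 counts.

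Secreted inflammatory signals fell more often than they rose. Of 36 tested chemokines and cytokines 19 were lower and 8 higher (median -0.95, or -0.75 with members at the floor set to their bound). Cxcl17, a mucosal chemokine, went from 55.9 to 94.6 CPM with DMSO to at most 4 counts in any AU-15330 library. Il1rn, the interleukin-1 receptor antagonist, went from 123 to 210.1 CPM (median 136) to 0.381 to 1.49 CPM (median 0.637), and Cxcl15, a chemokine of lung epithelium, from 17.6 to 34.9 CPM (median 28.6) to 0.0477 to 0.352 CPM (median 0.184). The increases with the largest fold were of weakly expressed genes. Csf1, a growth factor of macrophages named after its values were seen, was abundant and rose from 203 to 267 CPM to 331 to 495 CPM (0.90 ± 0.12). Ccl28, a mucosal chemokine, rose from 1.08 to 2.91 CPM to 14.1 to 15.8 CPM, Ccl5, which draws T and NK cells, from 1.18 to 2.1 CPM to 3.95 to 7.19 CPM, Cxcl10, an interferon target, from 0.186 to 1.07 CPM to 2.03 to 3.87 CPM, and Ccl2, which draws monocytes, from 0.186 to 0.592 CPM to 0.658 to 1.58 CPM. Il6 was not tested, with at most 2 counts in a library. In replicates 4 to 6 alone, Ccl2 did not pass the test.

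NF-kB subunits and feedback genes were higher in 15 and lower in 7 of 25, with a small median of 0.33. The inhibitor Nfkbia rose (1.76 ± 0.11), whereas the target Tnfaip2 went from 160.3 to 221 CPM to 21 to 32.6 CPM. Complement genes were 8 higher and 8 lower of 17. Among those that fell, C3, the central component, went from 119 to 274 CPM (median 174) to 2.6 to 5.64 CPM (median 4.35), and Masp1, a protease of the lectin pathway, from 121 to 271 CPM (median 172) to 1.01 to 2.7 CPM (median 1.22). C2 rose from 5 to 242 counts over 6 libraries.

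Cell division genes were higher. In the mitosis and kinetochore list 43 of 52 rose and 1 fell (median 1.02), and in the DNA replication list 39 of 54 rose and 5 fell (median 0.58). Both held within replicates 1 to 3, with 43 and 37 higher, and within replicates 4 to 6, with 45 and 36 higher. The summed level of the mitosis list varied with the replicate number in both groups, at 1386 to 1716 CPM in DMSO replicates 1 to 3 and 972 to 1126 CPM in replicates 4 to 6, and at 2659 to 3758 CPM and 2304 to 2416 CPM with AU-15330. Mad2l1, of the spindle checkpoint, went from 17.2 to 29.6 CPM (median 22.3) to 96.3 to 148 CPM (median 114) (2.32 ± 0.15), and Smc4, a condensin subunit, from 142 to 197 CPM (median 161) to 770.3 to 855 CPM (median 809). Mki67, the proliferation marker, was higher (0.95 ± 0.23) with overlapping groups, at 30.2 to 83.2 CPM and 65.5 to 163 CPM. The mitosis gene that fell was Cdc25b, a phosphatase that activates CDK1, from 78.6 to 90.8 CPM to 7.62 to 17.2 CPM.

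Replication genes that rose included Mcm5, of the replicative helicase (1.92 ± 0.17), Gins2, of the same helicase (1.97 ± 0.15), and Ccne1, the cyclin that starts S phase, from 1.11 to 3.04 CPM to 9.86 to 17 CPM. Dut, which clears dUTP, was lower (-1.29 ± 0.13). The regulators of G1 moved individually, with 12 higher and 8 lower of 28. Cdkn1a, the CDK inhibitor known as a p53 target, fell in these Trp53−/− cells from 38.3 to 84 CPM (median 55.1) to 2.25 to 5.4 CPM (median 3.75) (-3.94 ± 0.21). Cyclin genes of the D type moved in opposite directions: Ccnd1 went from 58.2 to 76.8 CPM to 16 to 34.4 CPM and Ccnd2 from 321 to 553 CPM to 1146 to 1429 CPM. Myc fell from 119 to 287 CPM to 69.6 to 95.2 CPM, and Mycn, its neural relative, from 6.0 to 13.2 CPM to 0.522 to 1.44 CPM. Cell number was not measured in this experiment.

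**Figure D4:**
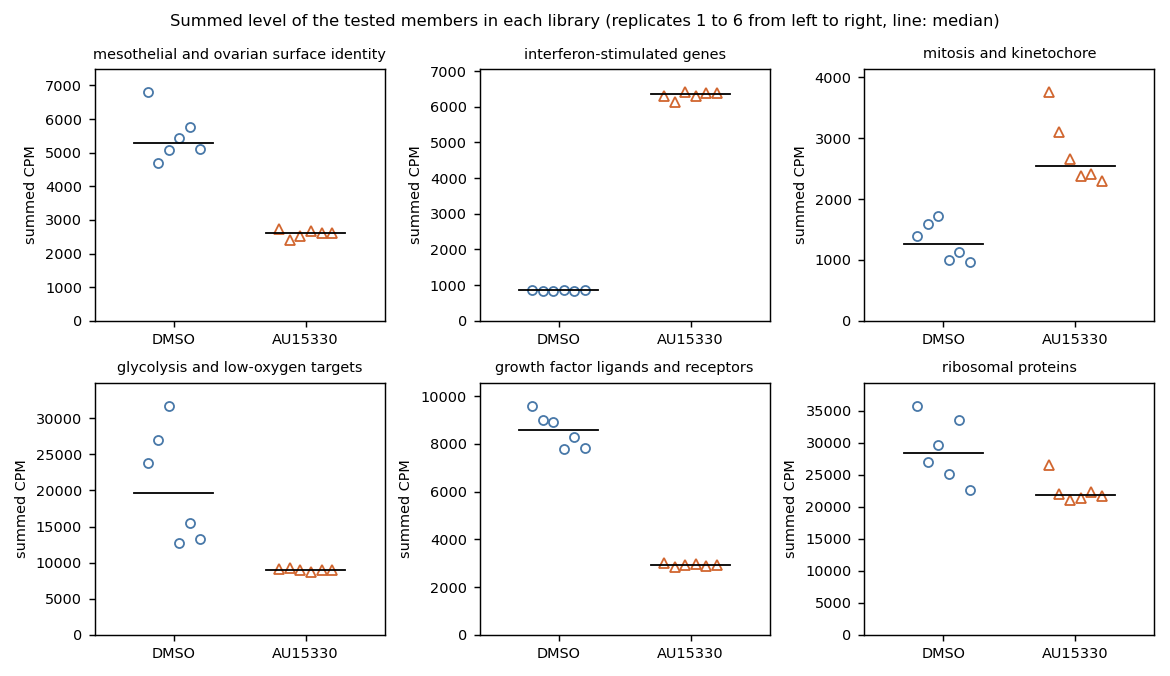
Summed CPM of the tested members of 6 gene lists in each of the 6 DMSO (circles) and 6 AU-15330 (triangles) libraries, with the median as a line and replicates in number order. Interferon-stimulated genes stay at 834 to 875 CPM with DMSO and 6133 to 6409 CPM with AU-15330, while the DMSO values of glycolysis differ between replicates 1 to 3 and 4 to 6.

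Glycolysis, the ATF4 response, the unfolded protein response and lipid synthesis had more genes lower than higher, and in the first 3 of these lists the DMSO libraries also differed widely. Of 38 glycolysis and low-oxygen targets 31 were lower and 5 higher (median -1.43). The summed level was 23809 to 31688 CPM in DMSO replicates 1 to 3 and 12726 to 15557 CPM in replicates 4 to 6, and 8673 to 9289 CPM in all AU-15330 libraries. Within replicates 1 to 3 the list gave 33 lower and 4 higher, and within replicates 4 to 6 24 lower and 5 higher. P4ha2, a prolyl hydroxylase needed for collagen folding, went from 42.6 to 171 CPM (median 75.4) to 0.313 to 0.837 CPM (median 0.489) (-7.41 ± 0.42). Ero1l, an oxidase of the endoplasmic reticulum, stood at 1622.5 and 1709.8 CPM in DMSO replicates 3 and 2 and at 444.8 to 580.6 CPM in the other DMSO libraries, against 32.1 to 43.1 CPM with AU-15330. Car9, a carbonic anhydrase of hypoxic cells, was among the 5 that rose, from 1.12 to 4.1 CPM to 4.27 to 5.37 CPM.

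The ATF4 response and serine synthesis, a program of amino acid shortage, was lower in 30 and higher in 3 of 42 genes (median -0.78). Within replicates 1 to 3 the counts were 22 and 6, and within replicates 4 to 6 37 and 3. The summed level was 4541 CPM in DMSO replicate 1, below all AU-15330 libraries at 4698 to 5698 CPM, and 7437 to 9624 CPM in the other DMSO libraries. Slc7a11, which imports cystine for glutathione, was at 26.8 CPM in DMSO replicate 1 and at 115 to 259.6 CPM in the other DMSO libraries, and at 3.29 to 5.76 CPM with AU-15330 (-5.21 ± 0.37). Aldh1l2, a mitochondrial folate enzyme, went from 33.5 to 185 CPM (median 132) to 0.360 to 0.822 CPM (median 0.688). Fgf21, a hormone induced by ATF4, was at 7.86 CPM in DMSO replicate 1 and 53.7 to 122.7 CPM in the others, and at 0.0411 to 0.360 CPM with AU-15330. Slc7a3, a cationic amino acid carrier, rose from 0.0965 to 1.67 CPM to 2.93 to 9.39 CPM.

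The unfolded protein response had 21 lower and 4 higher of 32 (median -0.48), with 12 lower and 6 higher in replicates 1 to 3 and 22 and 4 in replicates 4 to 6. The summed level was 6869 CPM in DMSO replicate 1, 11592 to 13506 CPM in the other DMSO libraries and 6436 to 6710 CPM with AU-15330. Hspa5, the chaperone BiP, followed that division, at 814 CPM in DMSO replicate 1, 2271 to 3809.8 CPM in the others and 646 to 727 CPM with AU-15330. Xbp1, a transcription factor of this response, was more even, at 209 to 304 CPM and 62.1 to 74.7 CPM (-1.87 ± 0.08).

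Of 39 genes of cholesterol and fatty acid synthesis 27 were lower and 6 higher (median -0.85). The summed level was 11617 to 14748 CPM in DMSO replicates 1 to 3 and 9828 to 10380 CPM in replicates 4 to 6, and with AU-15330 it was 8325 to 9429 CPM and 9771 to 10051 CPM, so that the groups overlapped in replicates 4 to 6. Fads1, a desaturase of polyunsaturated fatty acids, fell from 651 to 1085 CPM (median 791) to 92.3 to 133 CPM (median 118), and Sqle, which makes the sterol precursor epoxide, from 188 to 356 CPM (median 204) to 40.5 to 51.7 CPM (median 48.4). Scd1, the desaturase of saturated fatty acids, rose from 388 to 806 CPM to 992 to 1864 CPM, as did Acacb above. NRF2 antioxidant enzymes were lower in 25 and higher in 12 of 44. Gstm2, a glutathione transferase with close relatives, went from 30.1 to 94.9 CPM (median 38.9) to 0 to 0.225 CPM (median 0.120). The metallothionein genes Mt1 and Mt2 rose, Mt1 from 39.5 to 103 CPM (median 60.9) to 496 to 711 CPM (median 567) and Mt2 from 0.465 to 1.22 CPM to 11.5 to 20.4 CPM.

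Housekeeping lists shifted less. Ribosomal protein genes were lower in 55 of 78 and higher in 1, but with a median of only -0.41, none fell past 2-fold, and 4 were lower in a test against a fold change of 1.5. The summed level was 22665 to 35722 CPM with DMSO and 21076 to 26563 CPM with AU-15330, so that the groups overlapped, and 52 genes were lower within replicates 1 to 3 and 33 within replicates 4 to 6. Of 77 subunits of oxidative phosphorylation 53 did not pass the test, 14 were lower and 10 higher. With scaling to total counts that balance turned to 20 higher and 7 lower. It also turned within replicates 4 to 6, with 10 higher and 5 lower, against 7 higher and 13 lower within replicates 1 to 3.

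Developmental regulators showed both gains and losses. Of 17 tested Hox genes 14 were higher and 1 lower (median 1.43), and the other 22 of the 39 Hox genes in the table were not tested, 17 of them never above 3 counts. The 3 largest increases were of genes of the Hoxc cluster of chromosome 15. Hoxc8 went from 0.0465 to 0.495 CPM (median 0.103) to 11 to 13.8 CPM (median 12) (6.07 ± 0.27), Hoxc10 from 0.134 to 0.866 CPM to 6.93 to 11.1 CPM and Hoxc9 from 0.145 to 0.877 CPM to 1.89 to 4.1 CPM. Hoxc13, of the same cluster, was the gene that fell (-1.29 ± 0.15). Homeobox genes outside the clusters were balanced, 12 higher and 12 lower of 31. Dlx1 and Dlx2, neighbours on chromosome 2, rose from 2.96 to 5.88 CPM to 77.7 to 85.2 CPM and from 1.52 to 4.21 CPM to 39.2 to 46.7 CPM, and their relative Dlx3 fell from 13.4 to 33.7 CPM to 0.315 to 1.36 CPM.

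Nuclear receptors were 14 higher and 13 lower of 32. Esr1, the estrogen receptor, rose from 12.9 to 19.5 CPM (median 16.2) to 92.4 to 137 CPM (median 127) (2.86 ± 0.13), and Nr4a3, an immediate-early orphan receptor, from 5 to 605 counts over 6 libraries, a ratio of 112 (95% interval 47.5 to 345). Vdr, the vitamin D receptor, fell from 51 to 105 CPM to 9.15 to 12.7 CPM, and Nr0b2, a corepressor without a DNA-binding domain, from 17 to 36.9 CPM to 0.135 to 0.534 CPM. Neuronal and synaptic genes were higher in 17 and lower in 8 of 33. Icam5, an adhesion protein of dendrites, went from 2.42 to 3.52 CPM (median 3.05) to 122 to 163 CPM (median 134), and Map2, of dendritic microtubules, from 3 to 360 counts over 6 libraries, a ratio of 111 (95% interval 37.6 to 539). Cacna2d2, a calcium channel subunit, fell from 35.4 to 127 CPM (median 72.8) to 0.0440 to 0.270 CPM (median 0.0999).

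Germline genes stayed largely silent: 8 of 49 in the table were tested, 29 never exceeded 3 counts, and of those tested 5 were higher and 2 lower. The 7 calls became 4 within replicates 1 to 3 or in a fit of the 12 libraries alone, and 15 with every gene of at least 1 count tested. Brdt, the bromodomain protein of the testis, rose from 0.0483 to 0.232 CPM to 1.91 to 3.33 CPM. Of 17 imprinted genes 11 were lower and 5 higher, and the neighbours H19 and Igf2, which are expressed from opposite parental alleles, moved apart, H19 falling from 6.37 to 32.5 CPM to 0.0486 to 0.585 CPM. Genes of DNA methylation and retroelement silencing were 12 higher and 11 lower of 29. Uhrf1, which guides maintenance methylation, rose (2.51 ± 0.13), and Zfp57, which guards imprints, fell (-2.55 ± 0.18). The counts are on genes, so retroelement RNA was not analysed here.

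Whether cisplatin-treated cells respond to AU-15330 in the same way was tested with the interaction term, which compares the effect of AU-15330 between the 12 libraries without cisplatin and the 12 with it. The term compares changes and not levels. A difference can therefore lie in the level with cisplatin alone as well as in the level with both drugs. Levels in the cisplatin libraries are not given here. The difference passed the test for 4361 genes (33.7%), among them 3588 of the 9497 called without cisplatin. Of those 9497 genes, 6929 were also called with cisplatin in the same direction and 364 in the opposite direction. Across genes the effects correlated with r = 0.861, a description over 12941 genes that are not independent replicates, from comparisons without shared libraries.

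The list medians with and without cisplatin lay farthest apart for the interferon program. Of 58 interferon-stimulated genes 57 differed, all 57 towards a lower value in the presence of cisplatin, and the median change was 2.82 without and -0.57 with cisplatin. Isg15 rose by 7.16 without cisplatin and by 0.69 with it, a difference of -6.47 (adjusted p = 4.58e-17). In the MHC class I list 19 of 21 differed, 17 of them downwards. Mitosis genes had a median of 1.02 without and 0.19 with cisplatin, with 28 of 29 differences negative.

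The ATF4 list went the other way, with 36 of 37 differences positive and a median of -0.78 without and 0.35 with cisplatin. Slc7a11 changed by -5.21 without cisplatin and by -0.04 with it. Cdkn1a changed by -3.94 and -0.67. Ribosomal protein genes gave 46 differences, all positive. Other programs had close medians: mesothelial identity at -1.56 and -1.65, proteases at -1.31 and -1.02, growth factors at -1.02 and -0.94 and Hox genes at 1.43 and 1.46. Single members still differed, 11 of 21 mesothelial, 19 of 37 protease, 18 of 43 growth factor and 3 of 17 Hox genes, beside 33.7% of all tested genes. Among the named genes without a called difference, Krt18 changed by -2.41 and -2.37, Hoxc8 by 6.07 and 6.45, Dlx1 by 4.22 and 4.15, Adamts1 by 3.50 and 3.53 and Slc40a1 by 4.16 and 3.97.

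**Figure D5:**
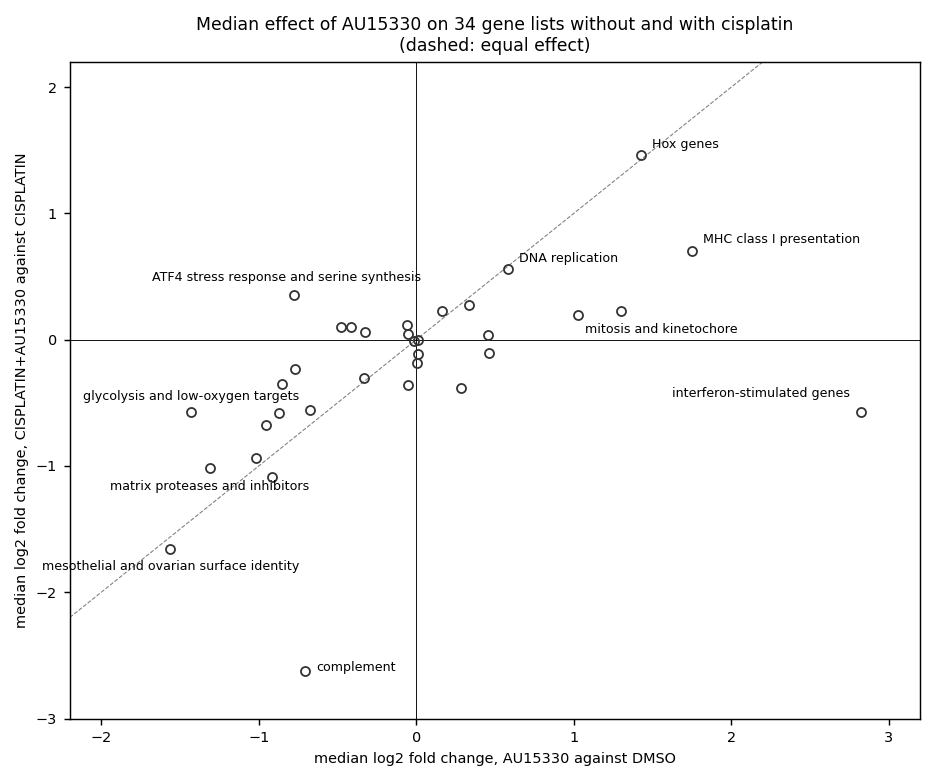
Median log2 fold change of each of 34 gene lists for AU-15330 against DMSO (horizontal axis) and for CISPLATIN+AU15330 against CISPLATIN (vertical axis), with a dashed line at equal effect. Interferon-stimulated genes lie at 2.82 and -0.57, the ATF4 list at -0.78 and 0.35, and mesothelial identity at -1.56 and -1.65.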

How the data were processed

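RNA was measured in 24 libraries of ID8 Trp53−/− cells, and the 6 DMSO and 6 AU-15330 libraries are compared here. Poly(A) libraries were made with a directional kit. The labels' processing notes name STAR 2.7.1a, DESeq2 1.36.0 and the mouse build mm10. The counting tool, annotation and use of strand are not given in the sources used here, so reads of overlapping antisense genes or near-identical relatives (Oas, Ifit, Gsta, Gstm, H2-Q, ribosomal proteins) may be assigned uncertainly. The authors deposited raw counts for 25229 gene symbols in 48 columns, 2 lanes per library, which were summed.

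Counts were tested with edgeR 4.0.16 (R 4.3.3): filterByExpr (12941 genes), TMM scaling, and the quasi-likelihood F test in a fit of 4 group means over 24 libraries (20 residual degrees of freedom). Genes were called at a p-value under 0.05 after Benjamini-Hochberg adjustment across the tested genes. The SE is the size of the log2 fold change divided by the root of F, and log2 CPM used a prior count of 2. Library totals of 17592588 to 23490259 put the floor of 3 counts at 0.123 to 0.186 CPM, counting error only. Intervals of ratios of summed counts are exact (95%). The members and the 34 lists were chosen with earlier results of these data known. Named genes are the 12 largest changes in each direction with a mean log2 CPM of at least 5 and 6 of 6 pairs, up to 3 called members of each list per direction, and a set of fixed regulators, of which 143 tested genes are described. Some named genes are not reported here. Alternatives were other scalings, DESeq2 1.42.0, no filter, 12 libraries, a replicate block, a 1.5-fold test, 1 lane and left-out replicates. The test was checked on simulated data in which few genes changed, in equal numbers up and down. Most genes changed in the data here, so that check does not cover the choice of scaling. Promoter windows and gene positions came from RefSeq (GRCm38.p6, the same build), with the first listed window of a gene, and 10299 of the tested genes matched.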

Additional observations from a re-analysis of the deposited data

Results flagged for a closer look

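Some libraries lay far from the rest of their group. Among 286 sets of 6 values (143 named genes, each with DMSO and with AU-15330), 28 held a value whose gap to its nearest neighbour, as a share of the whole range, exceeded Dixon's critical value for 6 samples, where chance gives about 1 in 20. In DMSO replicate 1 the value lay above the other 5 libraries of its group for Irf7 11.1, Krt8 456.0, S100a4 95.8, Cxcl17 94.6, Il1rn 210.0, Gdf6 10.9, Gins2 9.22, Gstm2 94.9 and Hoxc10 0.866 CPM, and below them for Phf10 114.0 and Cgas 3.65 CPM. In AU-15330 replicate 1 the value lay above the other 5 libraries of its group for Bgn 9.59, Krt19 14.4, Ndrg1 11.1, Cxcl17 0.18, Masp1 2.7, Col1a1 104.0, Pdgfb 3.69, Id1 26.1, Gdf6 31.1 and Ccnd1 34.4 CPM, and below them for Smarca2 246.0 CPM. The other distant values, all with DMSO, were Trp53 at 21.6 CPM in replicate 2 (lowest of 6), Kank3 at 373.0 CPM in replicate 2 (lowest of 6), Cldn1 at 0.0487 CPM in replicate 2 (highest of 6), H2-Q4 at 0.162 CPM in replicate 5 (highest of 6), Bmp7 at 0.0487 CPM in replicate 2 (highest of 6) and Nr4a3 at 0.145 CPM in replicate 3 (highest of 6). For Cldn1, H2-Q4, Bmp7 and Nr4a3 no DMSO library held more than 3 counts, too few for the rate of 1 in 20 to apply. In 22 of the 28 the distant value was that of replicate 1, divided evenly between DMSO and AU-15330 with 11 each. Rn45s, the ribosomal RNA precursor, took 1.70% of counts in DMSO replicate 1 and 0.432% in AU-15330 replicate 1, in each case the highest of the group. Leaving out replicate 1 of both groups changed the call of no named gene. The cause was not tested.

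For 103 of the 143 named genes the effect of AU-15330 differed by the interaction test between cells with and without cisplatin, 53 with a positive and 50 with a negative difference. Of all tested genes 33.7% differed. Many named genes were chosen for a large change in the libraries without cisplatin, which the interaction test uses again. That choice by itself pushes their differences towards the sign opposite to the change. The values below are log2 differences, the effect with cisplatin minus the effect without it. Among SWI/SNF and Polycomb genes, the difference was Smarca4 -0.387, Smarca2 -0.361, Pbrm1 -0.382, Smarcd3 -1.06, Phf10 0.906 and Bmi1 -0.289. For the interferon program it was Irf7 -5.14, Herc6 -2.73, Oasl2 -4.47, Oasl1 -3.7, Ddx58 -2.89, Trim30a -6.89, Isg15 -6.47, Oas1a -7.34, Mx1 -2.01, Ifi44 -4.89, Dhx58 -4.32 and Tlr3 -2.18. Among adaptors of nucleic acid sensing and MHC class I genes, the difference was Sting1 1.02, Mavs 0.958, H2-Q4 -2.12, Nlrc5 -5.34, Psme2 -1.24 and B2m -1.51. For cytokines, NF-kB and complement it was Cxcl17 1.98, Il1rn 1.68, Cxcl10 -2.62, Ccl5 -0.744, Ccl2 -1.28, Nfkbia -0.935, Tnfaip2 2.05, C3 0.977 and C2 -2.37. Among the other large increases, the difference was Serpinb9 -1.21, Tnfrsf21 -1.59, Acacb -1.44 and Cks2 -1.72. For the large decreases it was Trf 3.68, Bgn 2.54, Krt19 1.45, Star 3.07, Ndrg1 2.87, Ptgs2 3.67, Kank3 1.01, Mylk 1.9, Igfbp4 1.65, Lgals7 2.15 and Rcan2 1.53. Among keratins, junctions, matrix and proteases, the difference was Krt8 -0.731, Cdh2 -1.14, Mmp10 2.31, Adamts14 2.1, Adamts6 -2.49, Col17a1 2.42, Col1a1 1.95, Itgb3 0.819 and Fn1 0.825. For AP-1 and YAP genes it was Fosl1 3.38, Maff 1.81, Jun 0.598, Junb -0.387, Ccn1 0.857, Nuak2 0.915 and Lats2 -0.606. Among growth factors and TGF-beta genes, the difference was Pdgfb 1.74, Fgf21 6.05, Ereg 1.22, Ltbp4 0.919, Id1 2.54, Bmp7 -3.61 and Gdf6 -1.9. For the cell cycle it was Mki67 -1.02, Mad2l1 -1.59, Smc4 -1.4, Cdc25b 1.07, Mcm5 -0.683, Gins2 -1.05, Dut 1.01, Cdkn1a 3.27 and Myc 1.03. Among metabolic and stress genes, the difference was Aldh1l2 5.23, Slc7a11 5.18, Slc7a3 -1.69, Ero1l 3.31, Hspa5 1.89, Xbp1 0.495, P4ha2 3.93, Fads1 0.902, Sqle 1.37, Scd1 1.01, Gstm2 1.88 and Mt2 -1.17. For developmental, neuronal and epigenetic genes it was Hoxc10 -0.982, Hoxc13 0.755, Dlx3 1.38, Esr1 -0.896, Nr0b2 1.24, Map2 -5.58, Icam5 -1.34, H19 3.22, Brdt -1.81, Uhrf1 -1.29 and Zfp57 0.819.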

How the results depend on the processing

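The direction of each of the 143 named genes was kept in every alternative that could be fitted, and the calls changed as follows. Pbrm1 passed the threshold with DESeq2 size factors, total counts, the DESeq2 Wald test, replicates 1 to 3 alone and when replicate 2, 4 or 6 was left out. Smarca4, Smarca2, Trp53, Krt8, Wt1 and Junb were not called in a test against a fold change of 1.5, Ifi44 not within replicates 1 to 3 and Ccl2 not within replicates 4 to 6. That test called 4657 genes, 2177 higher and 2480 lower, 562 list members in place of 890 and 926 differences with cisplatin in place of 4361, a stricter question by construction, and moved the calls of 12 of the 34 lists by over 1.5 times. With all genes of at least 1 count (20428 tested) 1239 genes were higher and 1565 lower past 4-fold. Deciles by mean level gave 34.3% higher and 39.4% lower in the lowest decile and 32.6% and 43.6% in the highest. Scaling to total counts raised all changes by a median of 0.129 on the log2 scale, and the higher share of calls was then 58.6% in place of 49.3%. Leaving out 1 replicate number gave 9159 to 9515 calls (4523 to 4621 higher, 4569 to 4944 lower), 1749 to 1779 higher and 2075 to 2148 lower past 2-fold, 858 to 884 list members and 3790 to 4628 differences. Same-numbered DMSO and AU-15330 libraries deviated together with correlations of 0.042 to 0.217, over 0.1 for 3 of 6 numbers, and 3 of 6 DMSO libraries correlated best with their own number, so the numbers were not taken as pairs in the main test. In the choice of the largest changes, same-numbered libraries served only as a filter on direction. The replicate block gave 9966 calls and 5303 differences, and it changed the call of no named gene. The 12 libraries alone gave 8589 calls. Within replicates 1 to 3 and 4 to 6 the calls were 8349 and 8760. Depth limits genes at or under 3 counts in a whole group, for which ratios cover counting error only. Motif shares of called genes are not given, since 79.6% of tested genes had a promoter window, under the 80% set as a minimum, which also leaves the alternatives for them without a value.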
